A study of Rattus norvegicus with 9 samples.

Results

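The genes described here are 9 of the insulin-like growth factor (IGF) axis and its surroundings, out of 41801 genes in the rat count matrices. They are the imprinted long non-coding RNA H19, the ligands Igf1 and Igf2, the receptor Igf1r, the binding proteins Igfbp3, Igfbp4, Igfbp5 and Igfbp7, and the heparin-binding growth factor Ptn. They were taken by symbol and followed across the stromal and myeloid cell types of 8 single-cell libraries. They were chosen by their measured levels in earlier results of the same data, which showed them in stromal or myeloid cells and, for H19 and Ptn, a difference between treated and untreated libraries, so their levels are given as a description and no test is attached to them. All 9 symbols were found in every matrix.

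Sprague-Dawley rats of 6 to 8 weeks, male according to the methods of the study, received a 3 mm circular osteotomy of the tibia and a 4 mm skin wound on the foot, and all groups shared both injuries. TO rats had the osteotomy alone. TOE rats also had radial extracorporeal shock wave therapy (rESWT), pressure waves from a handheld applicator, over the cut bone, on day 2 and again on day 4. Tissue of the osteotomy site was dissociated and sequenced on the 10x platform, taken 0, 4 or 24 h after the day 2 time point or 4 or 24 h after that of day 4, so that the TOE libraries of day 2 followed the earlier treatment alone. The libraries were TO 2d 0h, TO 2d 4h, TO 4d 4h, TO 4d 24h, TOE 2d 4h, TOE 2d 24h, TOE 4d 4h and TOE 4d 24h, with 1 library for each, and TO 2d 24h was not analysed here. Treated and untreated tissue could therefore be set side by side in 3 matched pairs, named 2d 4h, 4d 4h and last 4d 24h, and ratios given in time order are in this order. The number of animals in a library is not given in the labels. Each condition had 1 library and no test of treatment was made, and a fit over the 3 pairs with time as a block was not run. Differences between animals, dissections and treatments cannot be told apart.

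Igf1 and Igf2 are secreted peptides that bind the receptor tyrosine kinase encoded by Igf1r and act on growth, survival and differentiation. Igf1 comes from the liver and from local sources, among them osteoblast-lineage cells, fibroblasts and macrophages, and is stored in bone matrix. The secreted IGF-binding proteins hold the ligands, lengthen their life and set how much reaches the receptor. Igfbp7 binds IGFs weakly and is known as a matrix protein of vessels. H19 and Igf2 are neighbours and are reciprocally imprinted, with H19 read from the maternal and Igf2 from the paternal copy, and in rodents both are abundant in fetal tissue and mostly silenced after birth. Ptn, pleiotrophin, is a secreted growth factor of cartilage, tendon, vessel and nerve that binds the receptors encoded by Ptprz1 and Sdc3.

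H19 carries no protein, and its known mature product is a pair of microRNAs cut from an exon of H19, miR-675-5p and miR-675-3p. They are shown because H19 has no protein to show, and because small RNAs of this size are not captured by the assay, so that H19 counts stand for the host transcript. The sequences are those of RefSeq on the rat assembly GRCr8, 5′ to 3′, with the seed (bases 2 to 8) in capitals.
rno-miR-675-5p, chr1:207161800-207161821, minus strand: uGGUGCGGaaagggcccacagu
rno-miR-675-3p, chr1:207161766-207161786, minus strand: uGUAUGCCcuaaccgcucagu
The seeds differed from each other, and 0 other of 724 mature rat microRNAs in the table had either of them. The miR-675-5p sequence ended 88.6 kb from the nearer of the Igf2 promoter windows in the table, on the same strand of chromosome 1.

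Promoter windows of 300 bases, from 250 before to 50 after the start, were found for 8 of the 9 genes, 9 windows in all since Igf2 had a pair, and none was held for H19. The windows of Igfbp4, Igfbp7 and Ptn are printed because these genes had the most similar patterns over cell types, as given further on. Capitals mark the letters TATAAA and GGGCGG, each searched on both strands (TTTATA and CCGCCC where they lie on the other strand); the motifs do not overlap each other.
Igfbp4, chr10:84491221-84491520, plus strand: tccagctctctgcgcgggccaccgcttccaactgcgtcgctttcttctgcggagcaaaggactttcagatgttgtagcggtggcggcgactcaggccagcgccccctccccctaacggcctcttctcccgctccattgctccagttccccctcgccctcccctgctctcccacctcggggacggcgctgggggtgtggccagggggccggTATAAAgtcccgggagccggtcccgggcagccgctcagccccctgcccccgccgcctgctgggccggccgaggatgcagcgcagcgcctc
Igfbp7, chr14:31091486-31091785, plus strand: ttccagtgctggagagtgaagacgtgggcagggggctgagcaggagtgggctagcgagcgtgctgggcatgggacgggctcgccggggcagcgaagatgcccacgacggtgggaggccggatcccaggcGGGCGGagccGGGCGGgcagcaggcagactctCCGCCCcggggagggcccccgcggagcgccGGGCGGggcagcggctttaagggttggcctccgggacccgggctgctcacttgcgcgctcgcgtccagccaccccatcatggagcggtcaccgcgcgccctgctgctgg
Ptn, chr4:66342283-66342582, minus strand: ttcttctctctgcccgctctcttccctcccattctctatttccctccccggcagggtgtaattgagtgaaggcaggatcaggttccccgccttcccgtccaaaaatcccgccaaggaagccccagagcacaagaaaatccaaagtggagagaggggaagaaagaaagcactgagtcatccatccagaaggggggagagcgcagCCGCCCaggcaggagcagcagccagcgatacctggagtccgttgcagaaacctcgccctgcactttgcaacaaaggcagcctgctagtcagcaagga
TATAAA was present in the Igfbp4 window alone among the 9, on either strand, against 14.2% of all 33469 promoter windows of the same length. GGGCGG was present in 5 of the 9, those of Igf1r, Igf2 (both), Igfbp7 and Ptn, against 33.1% of all windows. The Igfbp7 window held 4 copies, and its GC content was 74.3%, against a median of 51.7% over all windows. The Igfbp4 and Ptn windows had a GC content of 71% and 57%. Neither motif was present in all 3 printed windows, and a match is a description of the letters only. GRCr8 is not the assembly named in the submitters' processing notes, so the coordinates are those of the RefSeq table and not of the counts.

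The libraries held between 95954800 and 144146202 unique molecular identifiers (UMIs, one for each captured RNA molecule) and between 11924 and 16227 cells that passed the filters, 110490 cells in all. Clusters were named from marker genes. Of the stromal and macrophage-like cells, 1285 were mesenchymal-like (median 31906 UMIs a cell), 378 endothelial-like (median 14231) and 1995 macrophage-like (median 14807), 3658 cells together. All 12 mesenchymal markers were detected in the mesenchymal-like class, with a summed level of 66248 to 216438 UMIs per 1000000 UMIs of the class (CPM) over the libraries, against 8.43 to 63.4 CPM for the 10 endothelial markers. Markers of blood cells were read in the class as well, the 10 of neutrophils at 1598 to 3928 CPM (highest in TOE 4d 24h), the 9 of monocytes at 703 to 2850 CPM, the 8 of B cells at 764 to 1592 CPM and the 8 of granulocyte-monocyte progenitors at 370.4 CPM in TOE 4d 24h and 51.4 to 96.4 CPM elsewhere. Any pair of libraries shared 40 to 110 cell barcodes, and among the 1663 mesenchymal- and endothelial-like cells 1 barcode occurred in more than 1 library.

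Before the genes are described, several libraries need to be set apart, since their stroma was made of different cells. In TO 4d 4h, 124 of 180 mesenchymal-like cells were fibroblast-like (led by Col14a1, Dpt and Sfrp2), against 0 to 26 cells in each of the other libraries. In TOE 2d 24h, 274 of 499 mesenchymal-like cells were F13a1-led, a population joined from a pair of clusters. The first was led by Csmd1, F13a1 and Cryba4 (160 cells). The other was led by Lmcd1, Cnn1 and Pappa, with F13a1 and Tagln also among its leading genes (114 cells). Neither could be named from its markers. In TO 4d 24h, 70 of 101 cells were osteoblast-like, neither fibroblast-like cells nor cells marked by Comp and Tnmd were found, and plasma-cell markers (8 of 8 detected) summed to 2777 CPM within the mesenchymal-like class, against 87.0 to 178 CPM in the other libraries. In TOE 4d 24h, 20 of 79 cells were osteoblast-like cells led by tRNA genes, against 2 of 101 in TO 4d 24h, and 23 were Comp/Tnmd-led. Erythroid markers ranged from 15.0 CPM in TOE 4d 24h to 2846 CPM in TO 2d 4h. Values without the fibroblast-like and Comp/Tnmd-led cells are given beside the mesenchymal-like ratios of the 9 genes printed here that they moved by more than 1.5 times. The part of carried-over RNA in any result was not tested.

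Across cell types, 8 of the 9 genes had most of their UMIs in stroma, Igf1r being the other. H19 was higher in mesenchymal-like cells, with pooled levels of 47.6, 20.7 and 0.25 CPM in the mesenchymal-like, endothelial-like and macrophage-like classes. Its library medians were 29.5, 5.49 and 0.08 CPM in this order, and 39.0% of its endothelial-like UMIs lay in 1 cell. The binding proteins and Ptn were higher in endothelial-like cells, for example Ptn at 218, 686 and 1.83 CPM in the same order. Igf2 was at 15.1, 35.3 and 0.03 CPM when pooled, but its library median was 9.12 CPM in mesenchymal-like and 4.59 CPM in endothelial-like cells. Igf1 was shared by mesenchymal-like and macrophage-like cells, and Igf1r was read in all classes. In the plot of levels by cell type these patterns stand in columns, and levels may be compared down a column but not between genes.

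**Figure D1:**
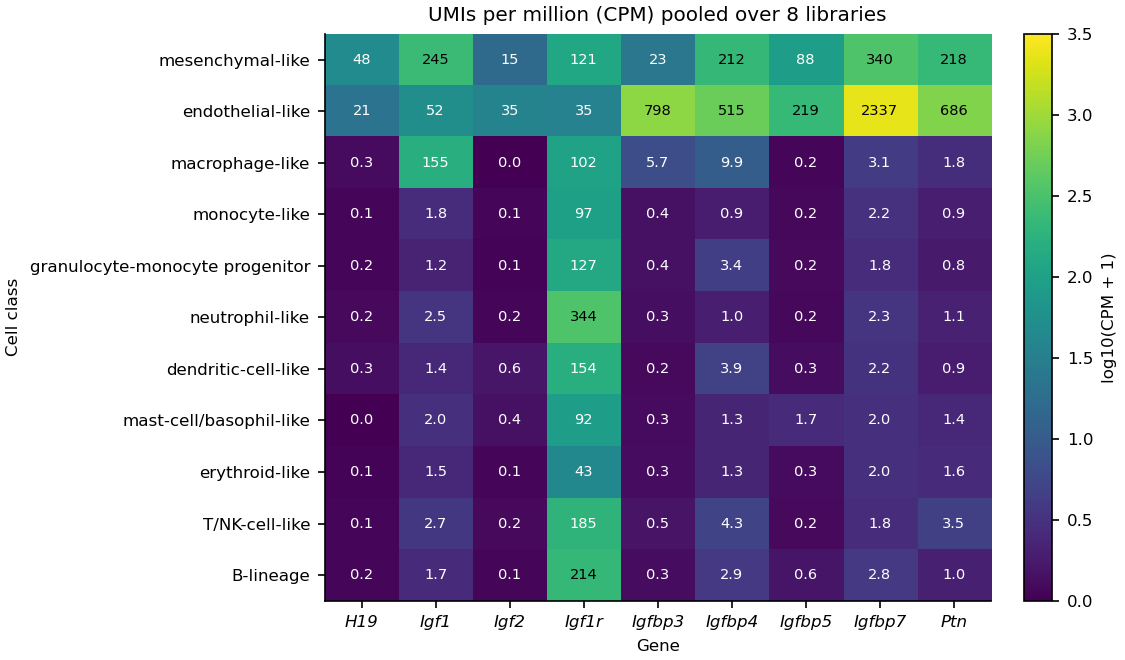
Heat map of pooled level in CPM of the 9 genes (columns) in 11 cell classes (rows), all 8 libraries together; the colour is log10(CPM + 1) and the CPM is printed in each cell. Igf1 stands at 245 CPM in mesenchymal-like and 155 CPM in macrophage-like cells (library medians 221 and 191 CPM), Igfbp7 at 2337 CPM in endothelial-like cells, and Igf1r is lowest in endothelial-like cells, at 34.7 CPM.

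Mesenchymal-like cells held 2204 of 2586 H19 UMIs, or 85.2%, and endothelial-like cells 5.45%. This share was 17.6% in TO 4d 24h, the lowest, and 95.7% at the highest. Of Igf1 UMIs, 58.9% were in mesenchymal-like and 28.7% in macrophage-like cells (5513 of 19208), the second share ranging from 13% to 60.2% over the libraries. Igf2 was divided 63.7% to 21.9% between mesenchymal-like and endothelial-like cells. Igfbp3 went the other way, with 76.4% of its UMIs in the few endothelial-like cells and 15.3% in mesenchymal-like cells. Igf1r UMIs were mostly outside the stroma, 39.0% in B-lineage and 17.9% in neutrophil-like cells.

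Because mesenchymal-like cells were read more deeply than the others, shares of cells were also taken after each cell was thinned to 2000 UMIs. H19 was then found in 5.07% of mesenchymal-like and 1.83% of endothelial-like cells, against 0.03% of B-lineage cells, which should lack it (15.5% of mesenchymal-like and 0.08% of B-lineage cells before thinning, at median depths of 31906 and 4061 UMIs). Igf1 was found in 16.1% of mesenchymal-like and 22.6% of macrophage-like cells, against 0.34% of B-lineage cells. Thinned in this way, Igf1 was therefore read in a larger share of macrophage-like than of mesenchymal-like cells, although its pooled level was lower there. Its library median was 221 CPM in mesenchymal-like and 191 CPM in macrophage-like cells, and TO 4d 4h stood at 1117 CPM in the former. Igfbp7 was found in 91.5% of endothelial-like, 33.2% of mesenchymal-like and 0.68% of macrophage-like cells. The thinning left out 3 mesenchymal-like, 50 endothelial-like, 92 macrophage-like and 5066 B-lineage cells with fewer UMIs.

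For H19 in mesenchymal-like cells, TO 2d 0h had 31.9 CPM, TO 2d 4h 24.9, TO 4d 4h 184 and TO 4d 24h 0.936. Of the treated libraries, TOE 2d 4h had 27.1 CPM, TOE 2d 24h 16.8, TOE 4d 4h 57.0 and TOE 4d 24h 99.98. Both ends of this range were thus untreated libraries, TO 4d 24h and TO 4d 4h, and the TOE libraries lay between them. The counts behind these levels were small and came from few cells, from 3 UMIs in 1 of 101 cells in TO 4d 24h to 1115 UMIs in 64 of 180 cells in TO 4d 4h. Over all libraries, the 10 mesenchymal-like cells with the most H19 held 31.9% of its UMIs. The intervals given below are exact 95% intervals that cover counting error only, and UMIs gathered in a few cells make them too narrow.

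**Figure D2:**
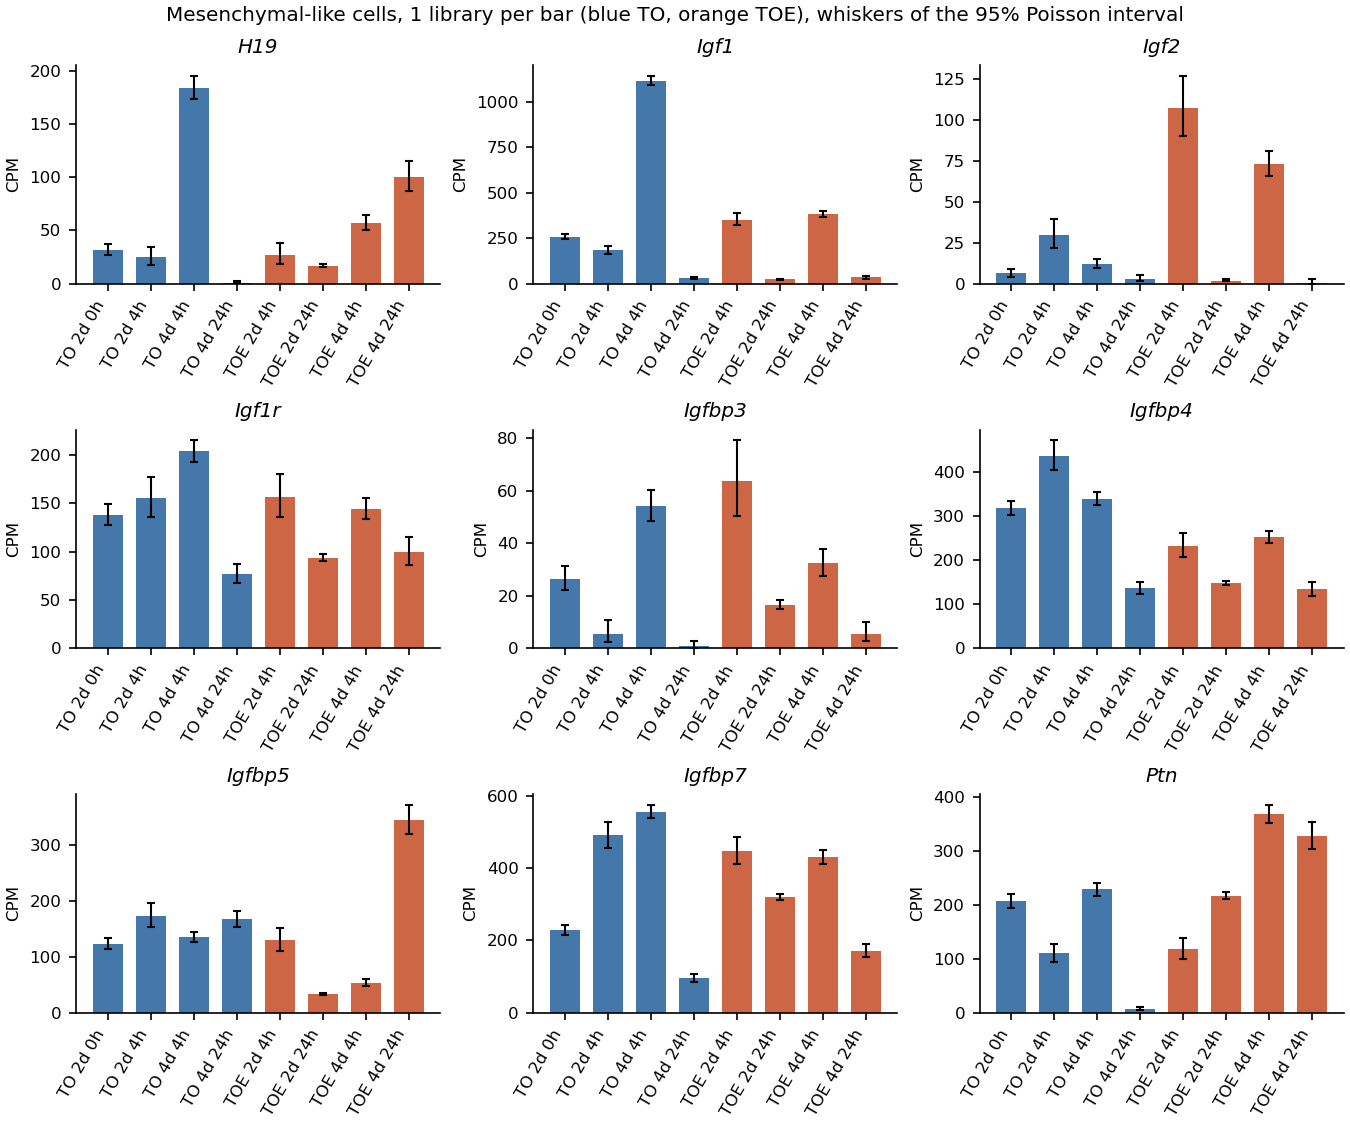
Level of each of the 9 genes in mesenchymal-like cells (CPM) in the 8 libraries, 1 panel a gene with its own axis starting at 0; bars are the level of 1 library, whiskers the exact 95% Poisson interval, blue TO and orange TOE. TO 4d 4h is the highest bar for H19 (184 CPM) and Igf1 (1117 CPM), and TOE 2d 4h and TOE 4d 4h are the highest for Igf2 (108 and 73.0 CPM).

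Within the stroma H19 was read mainly in a small number of populations. Its pooled level was highest in cells marked by Comp and Tnmd, genes of cartilage, tendon and ligament, at 197 CPM (565 UMIs, 41 of 113 cells positive), and in fibroblast-like cells, at 179 CPM (1153 UMIs, 73 of 178 cells). The fibroblast-like level rested on TO 4d 4h and was 48.3 CPM (100 UMIs) without that library. The leading genes of the cells marked by Comp and Tnmd were Col2a1, Cilp2, Comp, Kera, Edil3, Hapln1 and Tnmd in this order. In these cells 4 of 7 chondrocyte markers were raised. As these hold the cartilage genes Col2a1 and Hapln1 beside the tendon and keratocyte genes Tnmd and Kera, no cell type name is given and the cells are called Comp/Tnmd-led after genes of both kinds. Endothelial cells led by Gja5 and Gja4, gap junction genes of arteries, had 69.8 CPM (14 of 93 cells), while those led by Ramp3 and Emcn, genes of veins and sinusoids, had 0.69 CPM. In the bone-forming populations H19 was almost absent, with 5 UMIs in 177 osteoblast-like cells (0.94 CPM), and 0 UMIs in 105 Dmp1-led osteoblast-like cells, and in 40 cells led by tRNA genes, for which the limit that a count of 0 allows (3 UMIs) is 0.849 and 4.03 CPM. Marrow stromal-like cells (Cxcl12, Lepr) and pericyte- or smooth muscle-like cells (Rgs5, Notch3) had 6.88 and 3.74 CPM. Of the 16 UMIs of the former 11 were from TOE 2d 24h, and of the 11 of the latter 8 were from TOE 4d 4h.

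**Figure D3:**
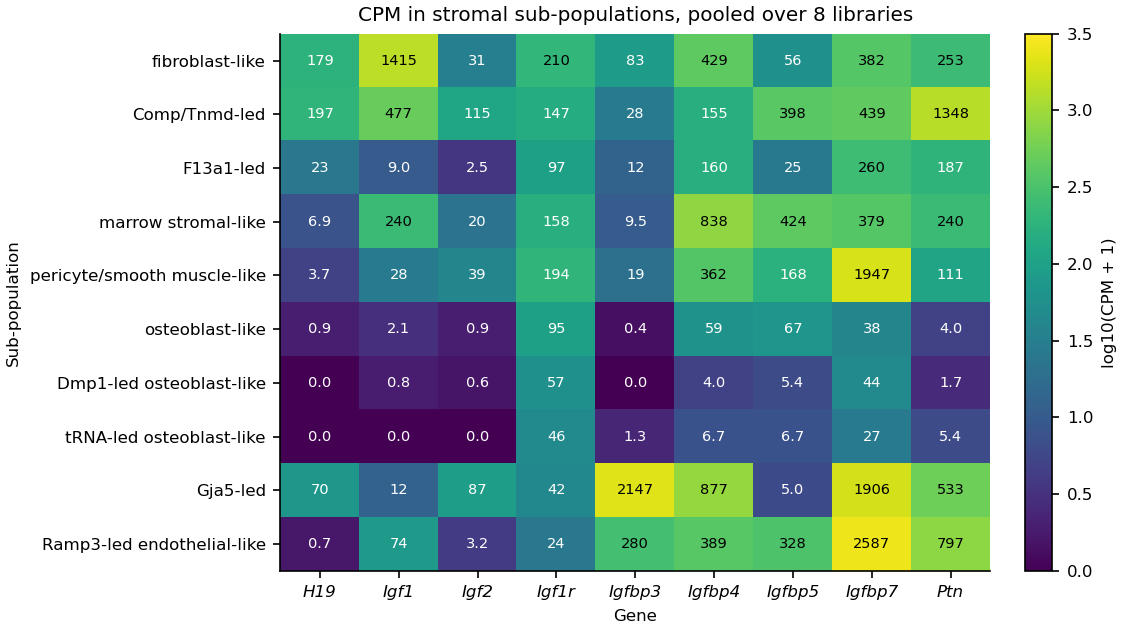
Heat map of pooled level in CPM of the 9 genes (columns) in 10 stromal populations (rows), all 8 libraries together; the colour is log10(CPM + 1) and the CPM is printed in each cell. H19 is highest in Comp/Tnmd-led (197) and fibroblast-like cells (179, or 48.3 without TO 4d 4h), Igf1 in fibroblast-like cells (1415), Ptn in Comp/Tnmd-led cells (1348) and Igfbp3 in Gja5-led cells (2147).

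The H19 level of the Comp/Tnmd-led cells was high in 6 of the 7 libraries that held any. It was 104 CPM in TO 2d 0h (7 of 15 cells positive), 210 in TO 2d 4h (2 of 8) and 203 in TOE 2d 4h (2 of 7). It was 238 CPM in TOE 2d 24h (8 of 16), 145 in TOE 4d 4h (15 of 41) and 380 in TOE 4d 24h (7 of 23). A single Comp/Tnmd-led cell held 51.6% of these UMIs in TO 2d 4h, 56.5% in TOE 2d 4h and 60.3% in TOE 4d 24h, so these levels rested on few cells. In TO 4d 4h, 0 UMIs were read in 3 such cells. The F13a1-led cells were lower, at 23.3 CPM in all and 14.3 CPM in TOE 2d 24h, where most of them lay, and 63.9 CPM without that library. TO and TOE libraries were both found at high H19 within the Comp/Tnmd-led cells.

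**Figure D4:**
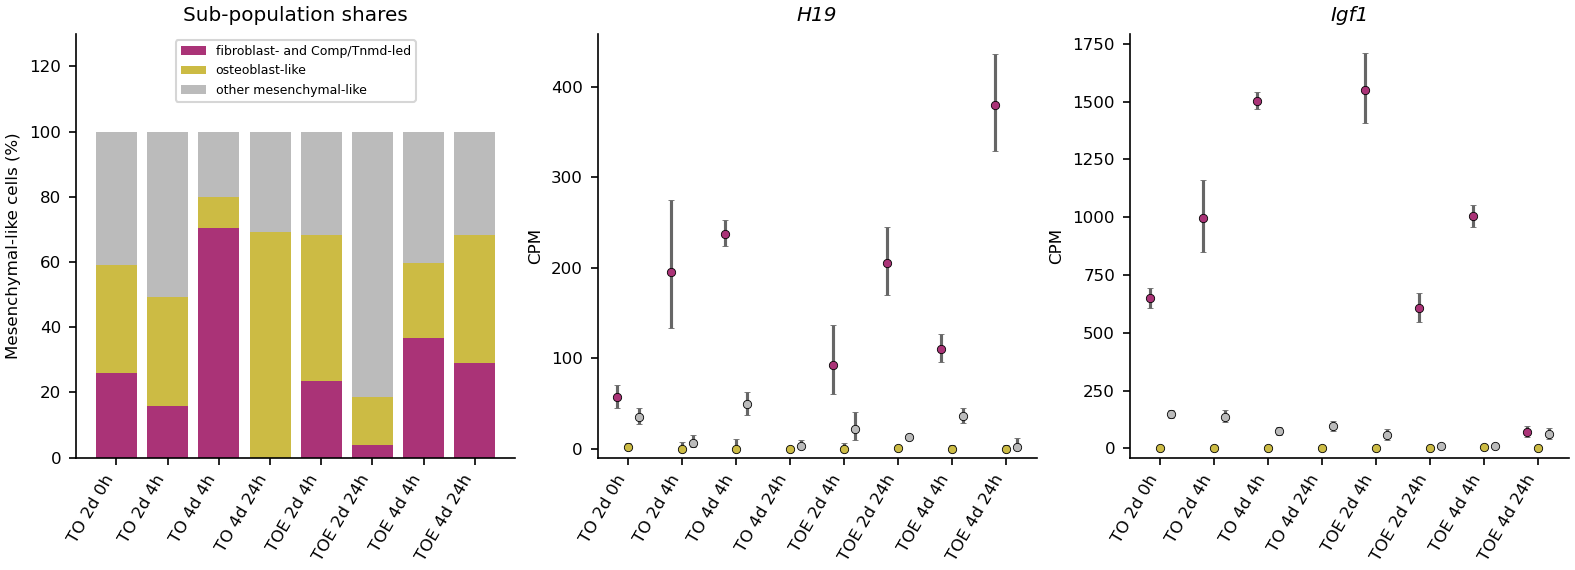
Left, share of mesenchymal-like cells (percent) that were fibroblast-like or Comp/Tnmd-led, osteoblast-like or other, in each of the 8 libraries; middle and right, level of H19 and Igf1 (CPM) in each of these portions, with exact 95% Poisson intervals. The fibroblast-like and Comp/Tnmd-led portion runs from 0% in TO 4d 24h to 70.6% in TO 4d 4h, and H19 within it from 56.7 CPM in TO 2d 0h to 380 CPM in TOE 4d 24h.

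At 4d 24h, H19 was 0.936 CPM in TO (3 UMIs) and 99.98 CPM in TOE (200 UMIs), a ratio of 107 (36.0 to 522). Of the TOE UMIs, 199 lay in 7 of the 23 Comp/Tnmd-led cells and 120 in a single cell, and TO 4d 24h held 0 Comp/Tnmd-led and 0 fibroblast-like cells. Without the highest cell of each library, H19 was at 0 in TO and 40.4 CPM in TOE. Without the fibroblast-like and Comp/Tnmd-led cells it was 0.936 CPM in TO (3 UMIs) and 0.677 CPM in TOE (1 UMI), a ratio of 0.72 (0.01 to 9.01), and these are too few UMIs to read a direction in the remaining cells. The ratio was 53.6 at either of the other clustering resolutions and 239 where each cell counted alike. For TO 4d 24h, fewer Comp/Tnmd-led cells and less H19 in each cannot be told apart.

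The 4d 4h pair went the other way for H19, from 184 CPM in TO to 57.0 CPM in TOE, a ratio of 0.31 (0.27 to 0.35), 1115 against 285 UMIs. Fibroblast-like cells made up 124 of 180 cells in TO and 26 of 183 in TOE, and Comp/Tnmd-led cells 3 and 41. Within fibroblast-like cells alone, H19 stood at 242 CPM in TO and 69.3 CPM in TOE. The same mix, here and below, left out populations with fewer than 3 cells in either library. With the populations held at this mix the ratio was 0.43. Without the fibroblast-like and Comp/Tnmd-led cells it was 0.65, or 0.22 (0.12 to 0.38) when the highest remaining cell of each library was left out too. H19 was lower in TOE by each of these counts. At 2d 4h the level was 24.9 CPM in TO and 27.1 CPM in TOE, a ratio of 1.09 (0.66 to 1.78), and the interval includes no difference. The cells outside the fibroblast-like and Comp/Tnmd-led populations held 5 and 9 UMIs of H19 in this pair, too few for a ratio.

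Igf1 in mesenchymal-like cells ranged over the libraries from 24.3 to 1117 CPM. In the TO libraries it was 258 CPM in 2d 0h, 185 in 2d 4h, 1117 in 4d 4h and 29.0 in 4d 24h. In the TOE libraries it was 352 CPM in 2d 4h, 24.3 in 2d 24h, 382 in 4d 4h and 33.5 in 4d 24h. The 3 libraries sampled at 24 h were thus the lowest. Of their mesenchymal-like cells 3 were fibroblast-like in TOE 2d 24h and 0 in either library of the 4d 24h pair. TO 2d 4h, where Igf1 was not low, also held only 2 such cells. Those 2 cells had 78 of its Igf1 UMIs (28.5%) and a single Comp/Tnmd-led cell had 82, so its level rested on few cells. Whether the number of fibroblast-like cells set these levels was not tested.

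Fibroblast-like cells were the main mesenchymal source of Igf1, at 1415 CPM with 169 of 178 cells positive. Comp/Tnmd-led cells had 477 CPM (65 of 113 cells) and marrow stromal-like cells 240.4 CPM (40 of 104 cells, 152 CPM without TO 2d 0h and 409 CPM without TOE 2d 24h), while osteoblast-like cells had 2.07 CPM. At 4d 4h the mesenchymal-like level differed by a ratio of 0.34 (0.32 to 0.36), and by 0.13 (0.08 to 0.21) without the fibroblast-like and Comp/Tnmd-led cells. Within fibroblast-like cells it was 1522 CPM in TO and 1480.0 CPM in TOE, and with the populations at the same mix the ratio was 0.96. The level in fibroblast-like cells was thus close in both libraries, while outside the fibroblast-like and Comp/Tnmd-led populations there were 95 UMIs in TO, 49 of them in 1 cell, and 24 in TOE. Without the highest of these cells in each library that ratio was 0.22 (0.12 to 0.38). At 2d 4h the ratio was 1.91 (1.64 to 2.22), and it was 2.09 without the highest cell of each library but 0.29 (0.18 to 0.46) without the fibroblast-like and Comp/Tnmd-led cells, of which TO held 10 and TOE 14. It was 1.54 at the same mix, which left out the fibroblast-like cells alone of these, and 1.77 when the highest cells were left out too. At 4d 24h it was 1.15, 0.70 (0.45 to 1.07) without those cells and 0.16 at the same mix of the 4 populations with enough cells in both libraries.

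Macrophage-like cells, the other source, were steadier. For Igf1, TO 2d 0h had 68.7 CPM, TO 2d 4h 218, TO 4d 4h 230.4 and TO 4d 24h 255, while TOE 2d 4h had 175, TOE 2d 24h 119, TOE 4d 4h 183 and TOE 4d 24h 199. TOE was below TO in all 3 pairs, with ratios of 0.80 (0.69 to 0.93), 0.79 (0.73 to 0.86) and 0.78 (0.60 to 1.01), none past 2-fold, and the last interval includes no difference. The clusters behind these levels differed between the libraries. At 4d 4h the cells led by S100a9 and Camp, neutrophil genes, were 7 in TO and 41 in TOE, those led by Ciita and Ccr2 20 and 52, and those led by Adamts3 49 and 16. At 4d 24h the cells led by Hpgds, Vcam1 and Gpd1 were 44 of 113 in TO and 4 of 25 in TOE. With the clusters of at least 3 cells in each library held at the same mix, the ratios were 0.67, 1.05 and 1.21 in time order. The last came from 3 clusters with 53 and 13 cells, and TOE was not below TO in either 4d pair by this count. Among the clusters that the last left out were the cells led by Fcrl2, Selenop and Stab1, 7 in TO and 1 in TOE. Igf1 was uneven among macrophage-like cells. It was 817 CPM in cells led by Fcrl2, Selenop and Stab1 and 547 CPM in cells led by Hpgds, Vcam1 and Gpd1 and holding Cd163, genes of resident macrophages. It was 119 CPM in cells led by Nrg1, Ptgs2 and Cxcl3, which are inflammatory genes, 13.3 CPM in cells led by F13a1, Egln3 and Akr1b8, and 3.17 CPM in cells led by the osteoclast genes Ctsk and Mmp9 (14 UMIs in 138 cells). The cluster with osteoclast genes was the lowest of the class and the clusters with resident macrophage genes the highest. A cluster of the class led by the B-cell genes Pax5 and Ebf1 (135 cells) had 221 CPM, and its part in the class level was not tested.

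Igf2 was the most unevenly held of the 9 genes, with 66.2% of its mesenchymal-like UMIs in 10 cells. Its level was 6.34 CPM in TO 2d 0h, while TO 2d 4h had 29.7, TO 4d 4h 11.9 and TO 4d 24h 2.81. Of the treated libraries, TOE 2d 4h had 108 CPM, TOE 2d 24h 1.86, TOE 4d 4h 73.0 and TOE 4d 24h 0.50. The TOE libraries taken at 4 h were the highest and the TOE libraries taken at 24 h the lowest. Pooled Igf2 was highest in Comp/Tnmd-led cells (115 CPM, 26 of 113 cells positive), Gja5-led endothelial cells (86.9 CPM, 24 of 93) and pericyte- or smooth muscle-like cells (39.5 CPM, 20 of 94). Without TOE 4d 4h the first was 15.1 CPM (28 UMIs) and the second 48.3 CPM, and the third was 24.4 CPM without TO 2d 4h and 62.6 CPM without TOE 2d 24h, so that their order rested on single libraries. Macrophage-like cells gave 1 UMI in 1995 cells.

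At 2d 4h the Igf2 ratio was 3.63 (2.56 to 5.22), but 83 of the 135 TOE UMIs lay in 1 cell. Without the highest cell of each library the ratio was 1.67. At the same mix of populations it was 1.75, which left out the fibroblast-like cells, 2 in TO and 7 in TOE with 86 TOE UMIs. Without the fibroblast-like and Comp/Tnmd-led cells it was 0.96 (0.59 to 1.57). The last was 0.30 (0.12 to 0.66) when the highest remaining cell of each library, with 23 of 31 UMIs in TOE, was left out too, and the same-mix ratio 1.17 without its highest cells, so that this difference was carried by few cells. At 4d 4h the ratio was 6.14 (4.76 to 8.02), and 12.8 without the highest cell of each library, since 48 of 72 TO UMIs lay in 1 cell. Here 302 of the TOE UMIs came from 16 of 41 Comp/Tnmd-led cells (299 CPM), against 0 UMIs in the 3 such cells of TO. At the same mix of populations the ratio was 7.53 (13 without the highest cells), and without the fibroblast-like and Comp/Tnmd-led cells 1.04 (0.42 to 2.80). Over all mesenchymal-like cells, H19 and Igf2, neighbours on the chromosome, thus stood in opposite directions in this pair. Within the Comp/Tnmd-led cells both were read in TOE alone, H19 at 145 CPM, but TO held only 3 such cells. At 4d 24h Igf2 had 9 UMIs in TO and 1 in TOE, too few for a ratio.

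For Igf2 in endothelial-like cells, TO 2d 0h had 4.22 CPM, TO 2d 4h 61.2, TO 4d 4h 4.83 and TO 4d 24h 0, while TOE 2d 4h had 4.34, TOE 2d 24h 38.2, TOE 4d 4h 91.4 and TOE 4d 24h 0. At 2d 4h there were 38 UMIs in TO and 2 in TOE, a ratio of 0.071, but 29 of the 38 lay in 2 pericyte- or smooth muscle-like cells of TO. Without such cells 9 and 2 UMIs remained, too few for a ratio. At 4d 4h it was higher in TOE (6 against 112 UMIs, ratio 18.9, 8.42 to 52.6), and 17.8 without the pericyte- or smooth muscle-like cells. In this pair 100 of the 112 UMIs lay in Gja5-led cells, of which there were 22 in TOE and 23 in TO. The number of such cells was therefore alike, and their Igf2 level was 208 CPM in TOE and 8.27 CPM in TO.

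Igf1r, the receptor, was the only one of the 9 genes whose pooled level among the named classes was highest outside the stroma. For Igf1 the order of mesenchymal-like and macrophage-like cells differed between libraries. Its level was higher in macrophage-like cells in TO 2d 4h, TOE 2d 24h and both libraries of the 4d 24h pair, and lower there in the others. Pooled levels were 344 CPM in neutrophil-like, 214 in B-lineage, 185 in T/NK-, 154 in dendritic-, 121 in mesenchymal- and 102 in macrophage-like cells, and 34.7 CPM in endothelial-like cells. The library levels of neighbouring classes in this order overlapped down to the macrophage-like cells, for example 77.1 to 204 CPM in mesenchymal-like and 82.0 to 154 CPM in macrophage-like cells. Those of endothelial-like cells (22.8 to 63.0 CPM) lay below both, and those of neutrophil-like cells (229.8 to 504 CPM) above both. After thinning to 2000 UMIs, Igf1r was found in 41.2% of neutrophil-like, 23.0% of mesenchymal-like and 8.23% of endothelial-like cells. In mesenchymal-like cells 83.5% of cells had a UMI before thinning, and the 10 highest cells held 5.52% of the UMIs, the most even of the 9 genes. The ratios of TOE to TO were 1.01, 0.71 and 1.30 in time order, all within 2-fold.

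Igfbp3, the main carrier of IGFs in blood, was highest when pooled in Gja5-led endothelial cells, at 2147 CPM with 70 of 93 cells positive (1358 CPM without TOE 4d 4h), against 279.7 CPM in Ramp3-led cells and 82.7 CPM in fibroblast-like cells. In TOE 2d 4h it stood the other way, at 69.9 CPM in 3 Gja5-led cells (4 UMIs) and 1019.9 CPM in 23 Ramp3-led cells. In endothelial-like cells as a whole, TO 2d 0h had 721 CPM, TO 2d 4h 1394, TO 4d 4h 462 and TO 4d 24h 164, while TOE 2d 4h had 828, TOE 2d 24h 315, TOE 4d 4h 2007 and TOE 4d 24h 314. The largest difference was at 4d 4h, a ratio of 4.34 (3.96 to 4.76). Within Gja5-led cells of that pair Igfbp3 was 589 CPM in TO (23 cells) and 4632 CPM in TOE (22 cells), but 297 of the 356 TO UMIs and 556 of the 2223 TOE UMIs lay in 1 cell each. Without these it was 104 and 3757 CPM, the former below the 396 CPM of the Ramp3-led cells of TO, so that Igfbp3, like Igf2, stood higher in the Gja5-led cells of TOE by either count. In mesenchymal-like cells Igfbp3 was between 0.936 CPM (TO 4d 24h) and 63.7 CPM (TOE 2d 4h), and at 2d 4h the ratio was 11.8 (5.72 to 28.3), from 8 UMIs in TO and 80 in TOE. Of those 80 UMIs, 51 lay in 7 fibroblast-like cells, and the ratio without the fibroblast-like and Comp/Tnmd-led cells was 2.68 (1.01 to 7.83). It was 6.11 at the same mix, which also left out the fibroblast-like cells, since TO held 2.

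Igfbp4, which restrains Igf1 until it is cut by the protease encoded by Pappa, was spread over many stromal cells, 62.8% of mesenchymal-like cells having a UMI. It was highest in Gja5-led endothelial cells (877 CPM) and marrow stromal-like cells (838 CPM, or 1329 CPM without TOE 2d 24h), followed by fibroblast-like cells (429 CPM). Its mesenchymal level ran from 134 CPM in TOE 4d 24h to 438 CPM in TO 2d 4h. In these cells it was within 2-fold in all 3 pairs, with ratios of 0.53 (0.46 to 0.61), 0.74 and 0.98 in time order. Without the fibroblast-like and Comp/Tnmd-led cells the first was 0.27 (0.22 to 0.33), past 2-fold, and without the highest cells the last was 0.61 (0.48 to 0.78). At the same mix of populations the ratios were 0.46, 1.60 and 2.07. The last rested on 1 osteoblast-like cell of TOE that held 168 UMIs, and was 0.10 without the highest cell of each library, while the first and second were 0.46 and 1.57. In endothelial-like cells it was 727 CPM in TO 2d 4h and 306 CPM in TOE 2d 4h, a ratio of 0.42, and it was less far apart in the other pairs.

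Igfbp5, the main binding protein of bone matrix, was highest when pooled in marrow stromal-like cells (424 CPM, or 706 CPM without TOE 2d 24h), Comp/Tnmd-led cells (398 CPM, or 237 CPM without TOE 4d 24h) and Ramp3-led endothelial cells (328 CPM), and nearly absent from Gja5-led cells (5.02 CPM). In this it was the reverse of pooled Igfbp3 within the endothelium. In mesenchymal-like cells, TO 2d 0h had 123 CPM, TO 2d 4h 173, TO 4d 4h 135 and TO 4d 24h 167, while TOE 2d 4h had 130, TOE 2d 24h 33.3, TOE 4d 4h 53.0 and TOE 4d 24h 345. Within marrow stromal-like cells the TO levels ran from 557 CPM in 2d 4h to 2704 CPM in 4d 24h, and the TOE levels from 108 CPM in 2d 24h to 422 CPM in 2d 4h. Over the mesenchymal-like class as a whole, the untreated libraries were closer together than the treated ones. The highest class level, that of TOE 4d 24h, was 160 CPM without its highest cell. The lowest, that of TOE 2d 24h, has no TO library to be set beside it. At 4d 4h the ratio was 0.39 (0.34 to 0.45), 0.16 at the same mix (0.27 without the highest cells, as 144 UMIs lay in 1 Comp/Tnmd-led cell of TO), and 0.055 (0.04 to 0.074) without the fibroblast-like and Comp/Tnmd-led cells. At 2d 4h it was 0.75, 0.496 without those cells, and 1.24 at the same mix (1.45 without the highest cells). At 4d 24h it was 2.07 (1.84 to 2.32), but 376 of 691 TOE UMIs lay in 1 cell. The ratio was 1.19 without the highest cells and 0.42 without the fibroblast-like and Comp/Tnmd-led cells. It was 0.19 at the same mix of the 4 populations with enough cells in both libraries (94 and 34 cells). Among those left out were the tRNA-led cells, 2 in TO and 20 in TOE. In endothelial-like cells Igfbp5 stood at 712 CPM in TO 4d 24h against 131 CPM in TOE 4d 24h, a ratio of 0.18.

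Igfbp7 had the narrowest range of library levels of the 9 in endothelial-like cells, between 1508 CPM in TOE 4d 24h and 2733 CPM in TOE 4d 4h, with TOE to TO ratios from 0.69 to 1.12. It was also high in pericyte- or smooth muscle-like cells (1947 CPM, 94 of 94 cells positive), as a gene of the vessel wall, and low in osteoblast-like cells (38.4 CPM). Its mesenchymal ratios were 0.91, 0.77 and 1.79 in time order, all within 2-fold. Without the fibroblast-like and Comp/Tnmd-led cells the ratio at 4d 4h was 0.48 (0.45 to 0.52), past 2-fold. At the same mix of populations the ratios were 0.91, 1.06 and 0.37 in time order.

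Ptn was 1348 CPM in Comp/Tnmd-led cells (100 of 113 cells positive), 797 CPM in Ramp3-led endothelial cells (504 CPM without TOE 2d 24h) and 533 CPM in Gja5-led cells, and 3.96 CPM in osteoblast-like cells. In mesenchymal-like cells, TO 2d 0h had 207 CPM, TO 2d 4h 109.9, TO 4d 4h 229 and TO 4d 24h 7.18, while TOE 2d 4h had 118, TOE 2d 24h 217, TOE 4d 4h 369 and TOE 4d 24h 328. TO 4d 24h alone was low, and the other 7 libraries lay between 109.9 and 369 CPM. The ratio at 4d 24h was 45.8 (30.2 to 72.7), from 23 UMIs in 6 cells in TO and 657 UMIs in 33 cells in TOE. Comp/Tnmd-led cells held 498 of the TOE UMIs. The ratio was 15.0 (9.65 to 24.3) without the fibroblast-like and Comp/Tnmd-led cells, 9.45 at the same mix of populations and 66.1 without the highest cells. At 4d 4h it was 1.61 (1.5 to 1.73), 0.94 at the same mix and 0.81 (0.64 to 1.03) without the fibroblast-like and Comp/Tnmd-led cells, and at 2d 4h it was 1.07. In endothelial-like cells Ptn ranged from 253 CPM in TO 4d 24h to 1164 CPM in TOE 2d 24h, and was 891 CPM in TOE 4d 24h, a ratio of 3.52 to TO, so that TO 4d 24h was the lowest library for Ptn in both stromal classes.

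Counted past 2-fold where both libraries of a pair together held 20 UMIs or more, 9 of 25 ratios of the 9 genes in mesenchymal-like cells were past it, and these counts describe genes that were chosen with such results in view. At 2d 4h, 2 of 9 were higher in TOE (Igf2 and Igfbp3; background 3.98% of 9865 genes) and 0 of 9 lower (background 5.37%). At 4d 4h, 1 of 9 was higher (Igf2; background 4.95% of 13164 genes) and 3 of 9 lower (H19, Igf1 and Igfbp5; background 5.65%). At 4d 24h, 3 of 7 were higher (H19, Igfbp5 and Ptn; background 14.5% of 10778 genes) and 0 of 7 lower (background 3.68%), with Igf2 and Igfbp3 under 20 UMIs. The median log2 ratio of the 9 genes was 0.10, -0.49 and 0.84 (7 genes in the last), against -0.06, 0.00 and 0.28 over all genes counted. No gene of the 9 was past 2-fold in the same direction in all 3 pairs, and Igf2 was past it in the same direction at 2d 4h and 4d 4h. The share of all genes that repeat over pairs was not counted, so neither statement can be set against a background.

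**Figure D5:**
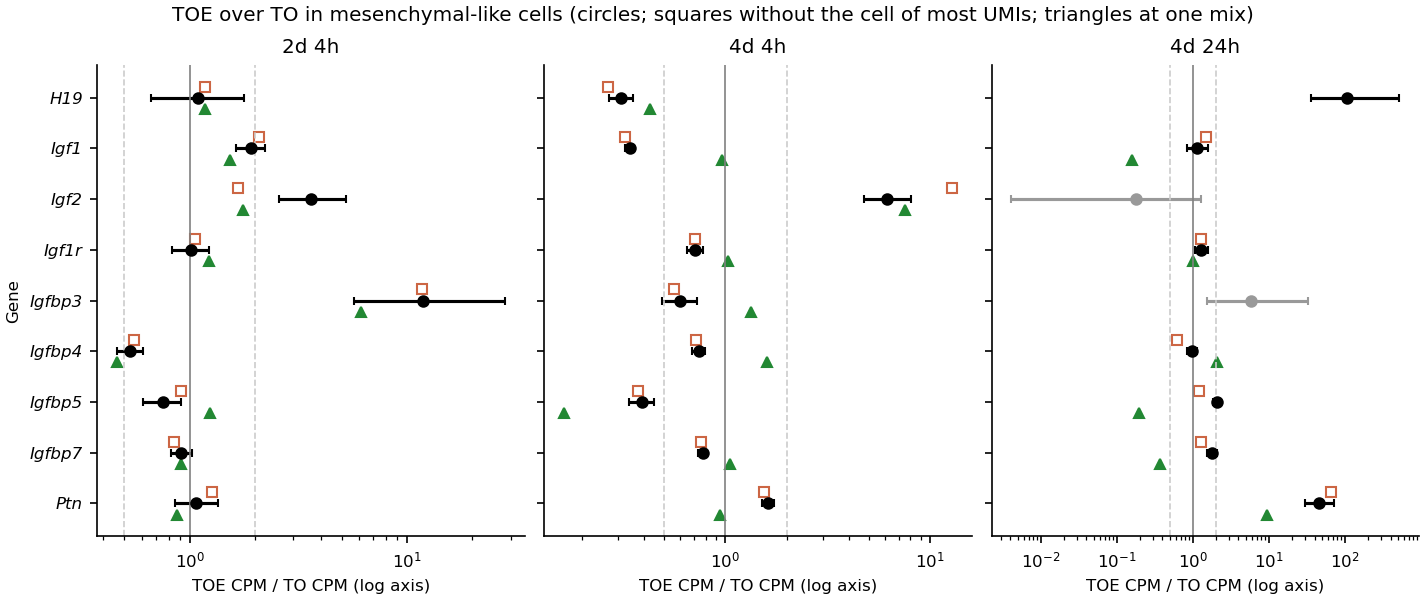
Ratio of TOE to TO (log axis) for each of the 9 genes in mesenchymal-like cells in the 3 matched pairs; circles with exact 95% conditional intervals (counting error only, black for genes with at least 20 UMIs and grey below), open orange squares without the cell with the most UMIs in each library, green triangles with the populations of at least 3 cells in each library at the same mix, dashed lines at 2-fold. The H19 circle lies at 0.31 for 4d 4h and 107 for 4d 24h, and the Igf1 triangle at 4d 4h (0.96) lies near 1 while its circle lies at 0.34.

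The wider pathway was followed through 40 further genes in 7 groups. In mesenchymal-like cells, 27 of them reached 20 UMIs in the first pair, of which 3 were past 2-fold higher in TOE and 3 lower (background 3.98% and 5.37% of all genes counted). In the second, 2 of 31 were higher and 5 lower (background 4.95% and 5.65%), and in the last, 8 of 26 were higher and 4 lower (background 14.5% and 3.68%). Their median log2 ratio was -0.01, -0.18 and 0.28, close to that of all genes in the first and the last pair. Of the receptors, Igf2r, which clears Igf2, and Insr, the insulin receptor, were within 2-fold in all 3 pairs, with pooled mesenchymal levels of 95.5 and 40.7 CPM. Of the adaptors that carry the receptor's signal, Grb10, Pik3r1 and Shc1 were also within 2-fold throughout. Genes outside the most abundant 3 of their group are named below because they were past 2-fold, after their values had been seen.

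The imprinted growth genes, 10 in all and often regulated together with H19 and Igf2 in the embryo, had 4 of 10 lower in TOE (background 5.65%) and 0 higher (background 4.95%) at 4d 4h. Meg3, a non-coding RNA, was 642 CPM in TO and 225 CPM in TOE, Peg3 124 and 45.8 CPM, Mest 46.4 and 10.4 CPM and Dlk1 16 and 4.80 CPM, while Plagl1, a transcription factor, was within 2-fold at 301 and 159 CPM. Over the libraries Meg3 was highest in TO 4d 4h and at 2.18 CPM in TO 4d 24h, and Meg3 was itself a leading gene of the fibroblast-like cells, which made up most of TO 4d 4h. At 4d 24h Peg3 (26.8 and 62.5 CPM) and Mest (9.67 and 33.5 CPM) were higher in TOE and Peg10 (10.9 and 5.00 CPM) lower. At 2d 4h Cdkn1c (24.9 and 54.2 CPM) was higher in TOE and Mest (24.3 and 6.37 CPM) lower.

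Of the other binding proteins, Igfbp6, which prefers Igf2, was 119 CPM in TO and 276 CPM in TOE at 2d 4h, and 0.62 and 19 CPM at 4d 24h. At 4d 4h it was 255 and 266 CPM. Of the proteases and protease inhibitors acting on the binding proteins, Htra1 (95.5 and 249.9 CPM) and Pappa (11.2 and 29.0 CPM) were higher in TOE at 4d 24h, and Stc1 (5.39 and 15.9 CPM), which blocks Pappa, at 2d 4h. Among the Ptn group, Sdc3 (35.2 and 118 CPM) and Ptprz1 (11.6 and 54.2 CPM), both receptors of Ptn, were higher in TOE at 4d 4h. Ptprz1 at 4d 24h was lower in TOE (74.6 and 37.0 CPM) and Mdk, the relative of Ptn, higher (21.5 and 53.5 CPM), while Ncl and Lrp1 were within 2-fold in all 3 pairs. Ptprz1 was itself a leading gene of the Dmp1-led osteoblast-like cells. Of these, TO held 0 and TOE 8 at 4d 4h, and TO 35 and TOE 8 at 4d 24h. Their part in the Ptprz1 levels was not tested, and pathway genes are not given at the same mix of populations.

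Of the adaptors, Grb14 was lower in TOE at 2d 4h (34.4 and 6.37 CPM) and higher at 4d 24h (6.55 and 33.0 CPM), the latter together with Irs1 (33.7 and 84.0 CPM), while Irs2 was lower (45.9 and 21.5 CPM). Of the proteins that bind Igf2 messenger RNA, Igf2bp2 was lower in TOE at 2d 4h (48.5 and 23.1 CPM) and at 4d 24h (54.9 and 18.5 CPM), and Igf2bp3 at 4d 4h (3.30 and 0.60 CPM).

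The patterns of the genes were compared over 87 points, each a cell class in a library with at least 20 cells, by Pearson's r of log2(CPM + 10) among 15979 genes. The points share libraries, depth and cell classes, so r is a description. For H19 the genes most alike were Megf6 (r = 0.911), Dkk3 (0.905), Kctd17 (0.894), Lrig3 (0.889) and Thbs2 (0.888). For Igf1 they were C11h3orf70 (0.912), Bend6 (0.908), Axl (0.892), Mmp14 (0.887) and Mertk (0.886). For Igf2 they were Eln (0.880), Gucy1a2 (0.849), Col8a1 (0.846), Prkar1b (0.842) and Mgp (0.835). Over the 8 mesenchymal-like libraries alone, r with Igf1 was 0.22, 0.37, 0.90, 0.38 and -0.27 for the 5 genes in this order, against 0.71 to 0.88 for those of H19 and 0.53 to 0.91 for those of Igf2. The likeness to Igf1 was thus mostly one between cell classes, and for Mertk it did not hold within the stroma. Axl and Mertk encode receptors for dying cells known from macrophages, and Eln, elastin, is a matrix gene of arteries and tendons. Among the 9 genes themselves, Igfbp4 and Igfbp7 (0.971) and Igfbp7 and Ptn (0.970) were the most alike. H19 was less like Igf2 (0.601) and Igf1 (0.573) than like Ptn (0.778), and Igf1r ran against the 4 binding proteins, with r between -0.44 and -0.34.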

How the data were processed

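Tissue of the tibial osteotomy site was profiled by 10x single-cell RNA sequencing in 8 libraries analysed here. Per the labels, the deposited matrices hold raw UMI counts per gene and cell barcode, made by the authors with Cell Ranger 9.0.0; the submitters' processing notes also list Seurat, R 4.0.3 and the builds GRCh38 and mRatBN7.2, without their roles. The authors' own filter on cells is not given in the sources used here. Counts of introns and of overlapping genes cannot be separated in these matrices.

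Barcodes with fewer than 200 genes, or with mitochondrial UMIs above 20%, were left out, which removed 2485 of 116711 barcodes, and 3736 cells (3.27%) with a Scrublet doublet score above 0.25 were removed. Cells were scaled to 10000 UMIs and clustered in scanpy 1.11.5 (2000 variable genes without the 9 genes and the 40 pathway genes, 30 components, 15 neighbours, Leiden 1 with leidenalg 0.10.2, no integration of libraries). This gave 34 clusters. A cluster was named "-like" from a marker list where at least 3 markers were raised 2-fold, and clusters with a median UMI count 3 times or more below that of their libraries stayed unnamed (16547 cells unnamed in all). Mesenchymal-like and endothelial-like cells were clustered again into populations, and macrophage-like cells likewise. The stromal clusters with F13a1 among their leading genes were joined into 1 population.

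Counts were summed per class and library and given as UMIs per 1000000 UMIs of that class (CPM), with exact Poisson intervals and exact conditional intervals of ratios, all at 95% and for counting error only, since UMIs of 1 cell are not independent. No test was made, as each condition had 1 library and the genes were chosen by their levels. Genes that reached 20 UMIs in a pair were counted as higher or lower past 2-fold on counts with 0.5 UMI added. The mix of populations was held alike by weighting each population's CPM by its UMIs in the pair. The 2-fold call and the ratio interval alone were tried on simulated counts, drawn independently for each gene. That simulation had no single cells and no difference in the mix of populations, so it cannot show how either affects the ratios. Patterns were compared by Pearson's r of log2(CPM + 10) over classes with at least 20 cells, among genes with at least 500 UMIs. Named beside the 9 genes were at most 3 pathway genes per group, those with the most UMIs in stromal cells, the pathway genes past 2-fold, and the 5 genes most like H19, Igf1 and Igf2. The 9 genes, the lists and the comparisons were chosen with earlier results of these data known. Other versions were matplotlib 3.10.9, pandas 2.3.3, scipy 1.17.1 and Python 3.11.15. Sequences came from RefSeq (GRCr8).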

Additional observations from a re-analysis of the deposited data

Results flagged for a closer look

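Several ratios of TOE to TO pointed opposite ways in different pairs, past 2-fold in each. None of these differences between pairs was tested, since each rests on 1 library a condition. In mesenchymal-like cells the 4d 24h and 4d 4h ratios were 107 and 0.31 for H19, and 2.07 and 0.39 for Igfbp5. In endothelial-like cells the 4d 4h and 2d 4h ratios were 18.9 and 0.071 for Igf2 (29 of the 38 TO UMIs of the latter lay in 2 pericyte- or smooth muscle-like cells, and 9 against 2 UMIs remained without such cells), and Igfbp5 had 2.04 in the 2d 4h pair against 0.18 in the 4d 24h pair.

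A pair of clusters that stayed unnamed for their low UMI counts also held the genes given below for each, above the level in B-lineage cells. They entered the comparisons only in the alternative that named low-UMI clusters. The cluster led by C1qa, a macrophage gene (499 cells, median 1398 UMIs), had 428 CPM of Igf1 (526 UMIs), against 1.71 CPM in B-lineage cells, and 61.9 CPM of Igfbp3 (76 UMIs), against 0.32 CPM. Named macrophage-like cells had 5.74 CPM of Igfbp3. The cluster led by Mgp, a matrix gene (1096 cells, median 872 UMIs), had 39.9 CPM of H19, 25.4 CPM of Igf1 and 10.2 CPM of Igf2. Of the binding proteins it had 7.63 CPM of Igfbp3, 95 CPM of Igfbp4, 37.3 CPM of Igfbp5 and 228 CPM of Igfbp7, and it had 51.7 CPM of Ptn. B-lineage cells were between 0.11 and 2.85 CPM for these 8 genes.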

How the results depend on the processing

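Without the fibroblast-like and Comp/Tnmd-led cells, the H19 ratio at 4d 24h was 0.72 (0.01 to 9.01), from 3 and 1 UMIs and too few to read a direction. Of the other ratios past 2-fold, Igf2 at 2d 4h came to 0.96 (0.59 to 1.57, which includes no difference) and Igfbp5 at 4d 24h to 0.42 (0.33 to 0.52). Among the ratios within 2-fold that also went from above to below 1 were Igf1 at 2d 4h (0.29, 0.18 to 0.46) and 4d 24h (0.70) and Ptn at 4d 4h (0.81). At the same mix of populations they were 1.54, 0.16 and 0.94 in this order. Under its other alternatives the H19 ratio lay between 52.6 and 239. Held at the same mix it had no ratio, since the 4 populations counted were at 0 in TO. The 3 UMIs of TO lay in the 4 F13a1-led cells, which the mix left out. Without the highest cells it had no ratio either, with TO at 0. The count of 9 of 25 ratios past 2-fold was 14 at 1.5-fold and 4 at 4-fold, and 8 to 11 under the rest. The share over all genes was not counted under these settings, so these counts cannot be set against it. Mesenchymal-like cells held 85.2% of H19 UMIs, 88.3% at Leiden 0.5 and at Leiden 2, 88.9% with low-UMI clusters named and 76.8% with libraries weighted alike. Macrophage-like cells held 28.7% of Igf1 UMIs, 30.8% under the stricter cell filter, 31.5% with the genes allowed in the clustering, 31.4% at Leiden 0.5 and with low-UMI clusters named, 36.9% with libraries weighted alike and 24.5% without TOE 2d 24h. The last setting, and those that left out the fibroblast-like and Comp/Tnmd-led cells, the pericyte- or smooth muscle-like cells, the highest cells or the shared barcodes, left out the highest cells of a subset as well, left 1 library out of a population, or held macrophage-like clusters at the same mix, were chosen after seeing the data. Of 259 recomputed values of the other 26 ratios, H19 at 4d 24h apart, 208 moved by less than their interval, 49 by more, and 2 that were past 2-fold came to lie on the other side of 1 (Igf2 and Igfbp5, above). The settings were unlike in this. Without the fibroblast-like and Comp/Tnmd-led cells, 21 moved by more than their interval, those 2 changed side and only 3 moved by less. With each cell counted alike 11 moved by more, while 0 did at Leiden 0.5 or at Leiden 2. The causes were not tested. The labels give no replicate numbers to pair, and a fit with the 3 times as blocks was not run. A level from fewer than 20 UMIs, such as H19 in TO 4d 24h, cannot show a difference in size.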
